A study of Mus musculus with 18 samples.

Results

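Transcripts of 10 genes of the unfolded protein response were followed through 18 libraries of mouse duodenal epithelium. The genes were chosen by symbol (Xbp1, Ern1, Ern2, Atf4, Atf6, Ddit3, Trib3, Sdf2l1, Creb3l1 and Pdia4), and all 10 were found among the 18838 genes of the 3 deposited tables. The libraries came from 3 wild-type (WT, Mtgr1+/+) and 3 Mtgr1-/- mice, with 3 libraries in each of 6 groups. Each mouse was sampled as freshly isolated crypts, as enteroids (3-dimensional epithelial cultures grown from crypts in Matrigel) after 24 h, called day 1, and as enteroids after 72 h, called day 3. Per the study's methods, the mice were age-matched littermates of both sexes, between 8 and 12 weeks old for enteroid culture, and the enteroids of both genotypes grew in the same medium. The Mtgr1 deletion is germline, so it is carried by every cell of the mouse and not by the epithelium alone. Mtgr1 encodes a transcriptional corepressor, and the comparison asked how its loss alters the crypt epithelium before and during culture.

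The unfolded protein response is the set of signals by which a cell adjusts to misfolded protein in the endoplasmic reticulum (ER). Sensors in the ER membrane (IRE1α from Ern1, its epithelial paralogue IRE1β from Ern2, ATF6, and PERK) signal to transcription factors (XBP1, the cleaved form of ATF6, ATF4 and CHOP), which raise chaperones, folding enzymes and degradation factors, or, under lasting stress, genes linked to cell death. In the intestine the response is best known from Paneth and goblet cells, which export large amounts of protein.

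Because IRE1 acts on Xbp1 RNA itself, the sequence it removes is shown first. The excised stretch was located as 2 copies of CNGCAGC with cut points 26 bases apart, at chr11:5524279-5524304 (GRCm38, + strand), in exon 4 of the transcript Xbp1-201. It was present in 3 of the 4 annotated Xbp1 transcripts. In the transcript sequence, capitals mark the 26 excised bases between their flanks.
Xbp1: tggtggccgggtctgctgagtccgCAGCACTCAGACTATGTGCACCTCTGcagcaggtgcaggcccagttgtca
The deposited values count the gene as a whole, so the Xbp1 levels given here do not separate RNA with the 26 bases from RNA without them.

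All values are normalized counts, which are reads per gene divided by 1 factor per library, within the table of each time point. In the 16 libraries whose reads could be recovered, between 22035316 and 28621990 reads lay on genes. RNA of the targeted gene, listed as Cbfa2t2, was not called lower at any time point in the libraries labelled Mtgr1-/-. In crypts it stood at 614, 523 and 595 in WT and 697, 466 and 534 in Mtgr1-/- (adjusted p = 0.917, limma). At day 1 it leaned upward, at 788, 710 and 757 against 1160, 1008 and 789 (adjusted p = 0.0557, limma). The groups did not overlap there, but the highest WT value (788.3) and the lowest Mtgr1-/- value (788.6) were nearly equal. The groups overlapped again at day 3 (adjusted p = 0.686, limma). Its level therefore does not check the labels. Of the marker lists, epithelium was abundant in every library (summed normalized counts of 139405 to 371415), while stroma and endothelium markers summed to at most 260.2. Markers of plasma cells and leukocytes summed to 1550 to 7592 in WT crypts and 469 to 1216 in Mtgr1-/- crypts (0 of 6 tested passed limma, 4 at an unadjusted p under 0.05), and to at most 314 in enteroids. These cells also use the unfolded protein response, and their part in the crypt values was not tested. Xist was high in 1 of the 3 mice of each genotype. The Mtgr1-/- crypt library of mouse 2 stood apart in Paneth cell markers, whose sum was 49178 there against 1442 and 1920 in the other Mtgr1-/- crypts, and results were also computed without this mouse.

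Genotypes were compared with limma on log2(normalized count + 1), a scale that understates the change of low genes, with adjustment over all genes tested and a threshold of 0.05. An exact permutation test of 1 gene with 3 mice per genotype cannot go below p = 0.1, so the adjusted p-values rest on the model across genes. In crypts, 2 of the 10 genes were lower in Mtgr1-/- and 0 were higher, where 3.15% of 12980 genes tested were called lower and 1.58% higher. At day 1, 5 genes were higher and 2 lower, against 30.0% of 12587 genes called higher and 28.9% called lower. At day 3, 4 were higher and 2 lower, against 29.9% and 29.1% of 12782 genes. The 2 genes that fell were Ern2 and Creb3l1 at each time point, and those that rose were Ddit3, Trib3, Ern1 and Xbp1 on both days and Atf6 on day 1. Beside so broad a background, the enteroid counts are not read as a result about the 10 genes together, and quantile normalization gave 3 higher and 4 lower at day 1. The median log2 fold change of the 10 genes was -0.11 in crypts, 0.22 at day 1 and 0.22 at day 3, beside medians of 0.0076, -0.0080 and 0.0026 over all genes tested. Under quantile normalization the 2 middle values of the 10 were -0.11 (Sdf2l1) and -0.0056 (Xbp1) at day 1. At day 3 they were -0.13 (Atf4) and 0.039 (Xbp1). The enteroid medians thus did not keep their sign in that setting.

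**Figure D1:**
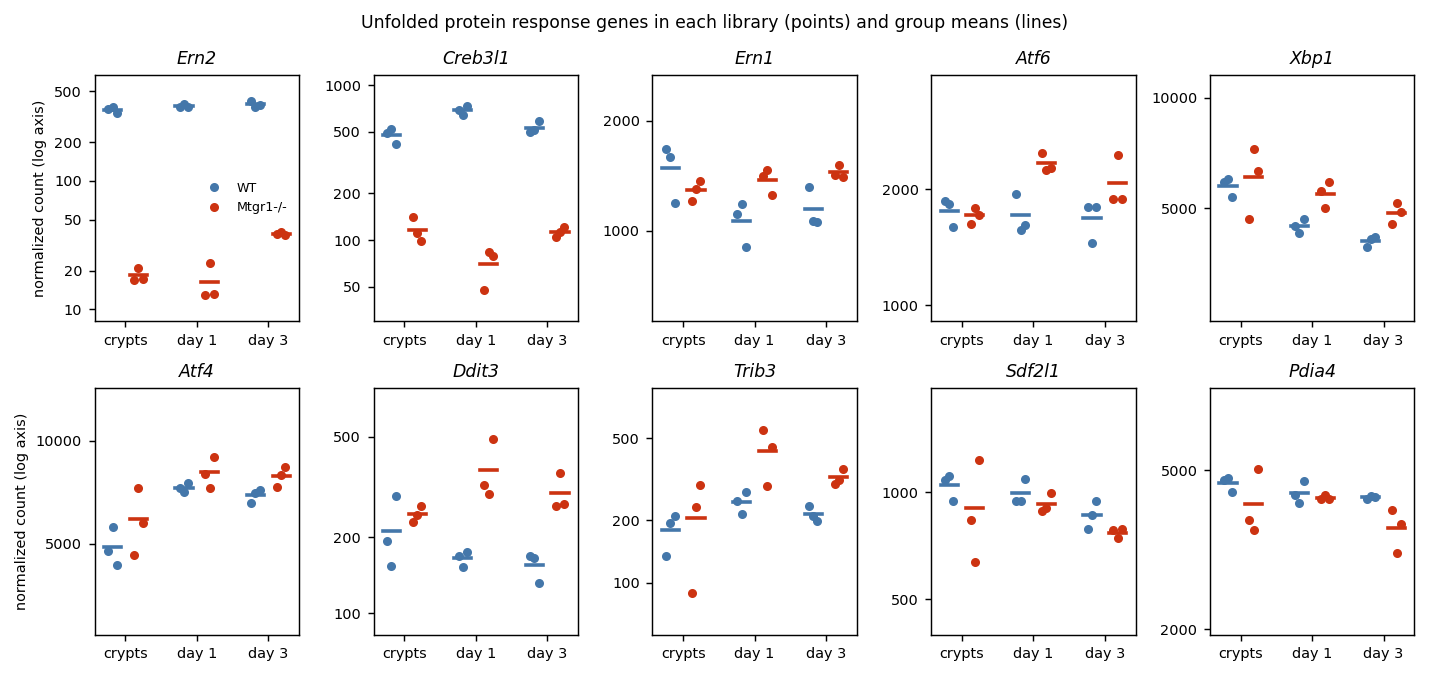
Normalized counts (log axis) of the 10 genes in each library, by time point, with WT in blue and Mtgr1-/- in red; points are libraries and lines are means of 3. The 3 Mtgr1-/- libraries of Ern2 sit between 12.8 and 39.8 at all time points, below every WT library (338 to 423), whereas the groups of most other genes overlap in crypts.

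Ern2 (chromosome 7, 122169893 to 122186207 in GRCm38, like the positions that follow), the IRE1 paralogue of mucosal epithelia, had the deepest loss. Its crypt libraries held 362, 377 and 338 normalized counts in WT and 17.0, 20.9 and 17.3 in Mtgr1-/-. Day 1 libraries held 376, 400 and 376 against 12.8, 22.8 and 13.2, and those of day 3 423, 376 and 395 against 38.7, 39.8 and 38.2. The Mtgr1-/- libraries lay far below WT at each time point with no overlap, and held 5.12%, 4.24% and 9.77% of the WT mean. The log2 fold changes were -4.22 ± 0.19 (SE, n = 3 per genotype) in crypts, -4.52 ± 0.25 at day 1 and -3.32 ± 0.14 at day 3 (adjusted p = 0.000173, 3.44e-05 and 4.68e-06, limma).

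Creb3l1 (chromosome 2, 91982328 to 92024502) encodes OASIS, a transcription factor that is held in the ER membrane and released by cleavage. Crypt libraries held normalized counts of 493, 524 and 420 in WT and 140, 111 and 98.6 in Mtgr1-/-. Day 1 enteroids had 691, 640 and 732 against 47.8, 83.4 and 79.4, and day 3 enteroids had 497, 511 and 587 against 105, 113 and 121. The groups did not overlap at any time point, and the Mtgr1-/- mean was 10.2% of the WT mean at day 1. The WT mean was 4.10 times the Mtgr1-/- mean in crypts, 9.79 times at day 1 and 4.70 times at day 3. The log2 fold changes were -2.04 ± 0.18, -3.31 ± 0.22 and -2.22 ± 0.13 (SE, adjusted p = 0.00186, 7.13e-05 and 1.13e-05, limma).

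Marker lists of the secretory cell types were read beside Ern2 and Creb3l1. All 8 goblet cell markers measured (Muc2 was not analysed here) were lower in Mtgr1-/- at each time point, and their summed normalized counts ranged from 151712 to 174560 in WT crypts and from 4769 to 7727 in Mtgr1-/- crypts. On day 1 the goblet sum was 62028 to 75637 against 2139 to 4229, and on day 3 it was 29848 to 30541 against 1740 to 4591. Of 8 Paneth cell markers, all were lower on day 1 and day 3, and 0 passed the test in crypts, where their sum was 136852 to 180871 against 1442 to 49178. Without mouse 2 of the Mtgr1-/- group, all 8 were lower in crypts too. In that mouse's crypts, where Paneth markers were at 31.7% of the WT mean, Ern2 was at 5.82% and the goblet sum at 3.63%. Tuft cell markers went the other way in crypts, where their sum was 1028 to 1180 in WT and 1462 to 4722 in Mtgr1-/- and 1 of 5 (Gfi1b) was called higher (4 without mouse 2), whereas 3 of 4 tested were lower at day 1 and 4 of 4 at day 3. No marker of the goblet and Paneth lists was at 0 in all Mtgr1-/- libraries of a time point. The part of these cells in the fall of Ern2 and Creb3l1 was not tested, and in bulk RNA fewer cells of a type and less RNA per cell cannot be told apart.

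**Figure D2:**
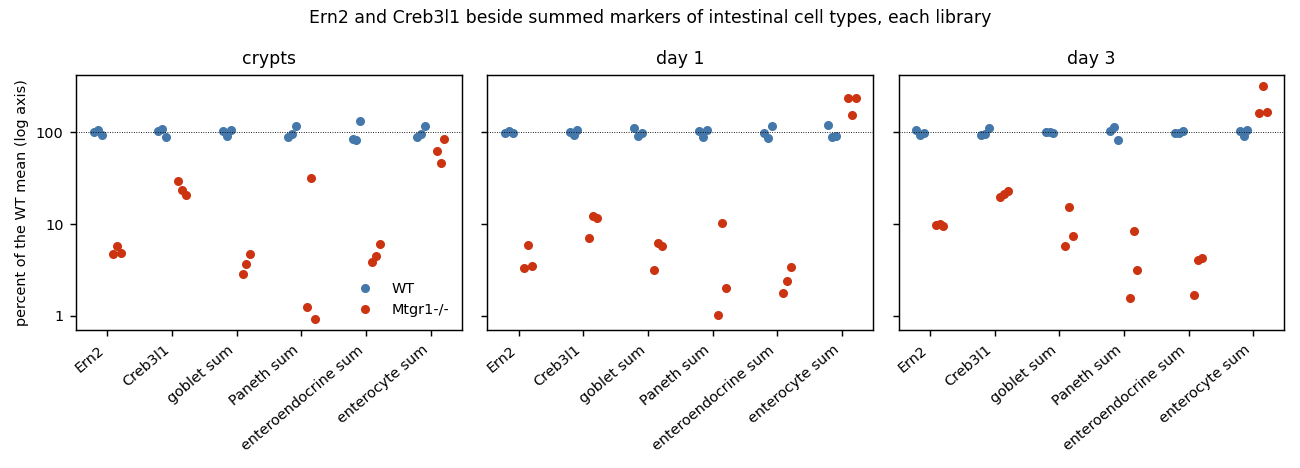
Ern2, Creb3l1 and summed markers of 4 intestinal cell types in each library, as percent of the WT mean of the same time point (log axis), with WT in blue and Mtgr1-/- in red. Ern2 lies at 3.34% to 9.99% in Mtgr1-/- libraries, beside goblet sums of 2.88% to 15.2%, and the Paneth sum of 1 crypt library stands apart at 31.7%.

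Ern1 (chromosome 11, 106394650 to 106487852), which encodes the ubiquitous IRE1α, went the other way from Ern2 in enteroids. In crypts, normalized counts stood at 1676, 1595 and 1193 in WT and 1206, 1297 and 1367 in Mtgr1-/-, with overlap between the groups (log2 fold change -0.19 ± 0.14, adjusted p = 0.535, limma). After 24 h of culture the values were 1113, 1182 and 900.1 against 1411, 1469 and 1255, and at day 3 they were 1316, 1065 and 1055 against 1419, 1511 and 1400. The Mtgr1-/- libraries lay above WT on both days without overlap. The Mtgr1-/- mean was 129% of the WT mean at day 1 (log2 fold change 0.38 ± 0.12, adjusted p = 0.0301, limma) and 126% at day 3 (0.34 ± 0.10, adjusted p = 0.0219, limma). At day 1 the call was lost without WT mouse 1, WT mouse 3, Mtgr1-/- mouse 1 or Mtgr1-/- mouse 2 (adjusted p from 0.0542 to 0.0916), without the trend (0.0540) and under quantile normalization (0.0592), and at day 3 without WT mouse 2 or 3 (0.0819 and 0.0877) and with edgeR (0.0508).

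Atf6 (chromosome 1, 170704674 to 170867771) encodes the sensor that moves to the Golgi and is cut there to release a transcription factor. Its normalized counts in crypts were 1860, 1826 and 1594 in WT and 1628, 1791 and 1718 in Mtgr1-/- (log2 fold change -0.04 ± 0.09, adjusted p = 0.878, limma). Libraries of day 1 had 1950, 1570 and 1617 against 2483, 2247 and 2272. Day 3 enteroids had 1802, 1452 and 1800 against 1890, 2455 and 1884. All Mtgr1-/- libraries exceeded all WT libraries on both days, though on day 3 by a narrow gap and with 1 high library. The rise of 1.36-fold at day 1 passed the test (log2 fold change 0.45 ± 0.10, adjusted p = 0.00719, limma), and the 1.23-fold difference at day 3 did not (0.30 ± 0.13, adjusted p = 0.0844, limma).

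Among the transcription factors, Xbp1 (chromosome 11, 5520659 to 5525893) differed modestly. Crypt libraries held normalized counts of 5882, 5994 and 5346 in WT and 4676, 7240 and 6299 in Mtgr1-/-, with the Mtgr1-/- libraries on both sides of WT (log2 fold change 0.06 ± 0.16, adjusted p = 0.892, limma). Day 1 enteroids had 4462, 4273 and 4680 against 5572, 4988 and 5874, and day 3 enteroids had 3917, 4103 and 4164 against 4518, 5156 and 4887. There was no overlap on either day. The rise was 1.23-fold at day 1 (log2 fold change 0.29 ± 0.09, adjusted p = 0.0250, limma) and 1.20-fold at day 3 (0.26 ± 0.08, adjusted p = 0.0225, limma), but under quantile normalization the values were -0.0056 (adjusted p = 0.952), a change of sign, and 0.039 (adjusted p = 0.618). The call was also lost at day 1 without WT mouse 1 or 2 or Mtgr1-/- mouse 1 or 3 (adjusted p from 0.0709 to 0.0883), and at day 3 without any 1 of the WT mice or Mtgr1-/- mouse 3 (0.0559 to 0.0803).

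Atf4 (chromosome 15, 80255184 to 80257541), whose protein is made when PERK or other kinases slow translation, did not pass the test at any time point, though its sign and call depended on the processing. In crypts, normalized counts stood at 4746, 5610 and 4320 in WT and 4639, 7293 and 5728 in Mtgr1-/- (log2 fold change 0.25 ± 0.18, adjusted p = 0.521, limma). After 24 h of culture the values were 7293, 7106 and 7503 against 8023, 7289 and 8950 (0.14 ± 0.10, adjusted p = 0.236, limma), but under quantile normalization Atf4 was called lower (-0.21, adjusted p = 0.0469, limma). After 72 h the values were 6591, 7037 and 7171 against 7319, 7933 and 8374 (0.18 ± 0.08, adjusted p = 0.0889, limma). The call at day 3 was made without Mtgr1-/- mouse 1 (0.23, adjusted p = 0.0491, limma), and quantile normalization gave -0.13 (adjusted p = 0.173, limma). The groups overlapped in crypts and at day 1 and were apart at day 3. As ATF4 is controlled largely in translation, its RNA is not a measure of its protein.

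Ddit3 (chromosome 10, 127290774 to 127296288), which encodes CHOP, the factor tied to lasting ER stress, had the largest rise of the 10 genes at each enteroid time point. Its normalized counts in crypts were 193, 153 and 291 in WT and 229.8, 244 and 267 in Mtgr1-/-, within the WT range (log2 fold change 0.27 ± 0.24, adjusted p = 0.615, limma). Libraries of day 1 had 169, 152 and 174 against 323, 296 and 489. Those of day 3 had 168, 166 and 132 against 267, 361 and 271. Every Mtgr1-/- enteroid library lay well above every WT library. The rise was 2.23-fold at day 1 (log2 fold change 1.12 ± 0.20, adjusted p = 0.00235, limma) and 1.93-fold at day 3 (0.94 ± 0.17, adjusted p = 0.00210, limma), and both calls held in all 16 alternatives run (highest adjusted p 0.0113 and 0.00995).

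Trib3 (chromosome 2, 152337422 to 152344032) encodes a pseudokinase that ATF4 and CHOP induce and that restrains them in turn. Crypt libraries held normalized counts of 134, 194 and 211 in WT and 89.5, 231 and 296 in Mtgr1-/-, the widest scatter of the 10 genes (log2 fold change 0.05 ± 0.44, adjusted p = 0.966, limma). Day 1 enteroids had 247, 213 and 276 against 547, 294 and 453. Day 3 enteroids had 235, 211 and 199 against 299, 314 and 356. The groups were apart on both days, narrowly so at day 1 for Mtgr1-/- mouse 2. The rise was 1.76-fold at day 1 (log2 fold change 0.77 ± 0.23, adjusted p = 0.0210, limma) and 1.50-fold at day 3 (0.58 ± 0.13, adjusted p = 0.00477, limma). The day 1 call was lost without WT mouse 1 or 2 or Mtgr1-/- mouse 1 or 3 (adjusted p from 0.0536 to 0.0718), and the day 3 call held in all 16 alternatives.

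The 2 target genes on the folding side, Sdf2l1 (chromosome 16, 17130138 to 17132383, an ER lumen protein that works with the chaperone BiP) and Pdia4 (chromosome 6, 47796141 to 47813430, a protein disulfide isomerase), did not pass the test at any time point. Normalized counts of Sdf2l1 in crypts were 1086, 1110 and 946 in WT and 836, 634 and 1232 in Mtgr1-/- (log2 fold change -0.27 ± 0.23, adjusted p = 0.595, limma). After 24 h of culture the values were 945, 943 and 1090 against 886, 903 and 996 (-0.10 ± 0.10, adjusted p = 0.436, limma). After 72 h the values were 788, 861 and 943 against 782, 743 and 786 (-0.16 ± 0.09, adjusted p = 0.168, limma). Only at day 3 were the groups apart, with the highest Mtgr1-/- value (786) just under the lowest WT value (788).

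Pdia4 in crypts was at 4726, 4769 and 4400 in WT and 3760, 3532 and 5025 in Mtgr1-/- (log2 fold change -0.19 ± 0.14, adjusted p = 0.535, limma). At day 1 its normalized counts were 4327, 4137 and 4689 against 4223, 4339 and 4236 (-0.04 ± 0.08, adjusted p = 0.703, limma). Libraries of day 3 had 4238, 4308 and 4274 against 3982, 3097 and 3675, all below WT (-0.26 ± 0.10, adjusted p = 0.0508, limma). That adjusted p ranged from 0.00903 to 0.122 over the alternatives, with the call made in 4 of 16, and under quantile normalization Pdia4 was also lower at day 1 (-0.32, adjusted p = 0.0145).

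**Figure D3:**
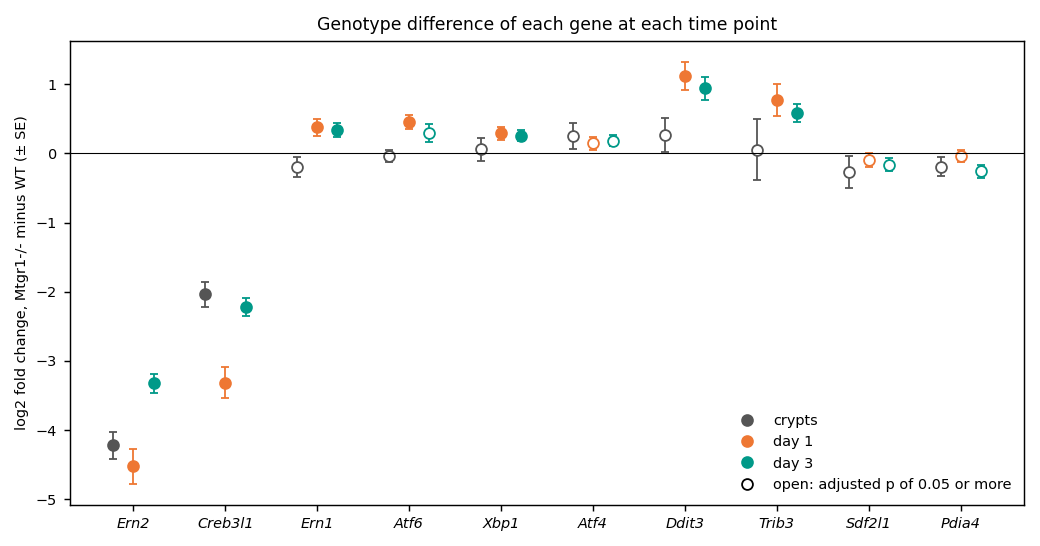
Log2 fold change (Mtgr1-/- minus WT, ± SE, 3 mice per genotype) of each gene in crypts, at day 1 and at day 3; filled points passed an adjusted p of 0.05 and open points did not. Ern2 and Creb3l1 lie between -4.52 and -2.04 at all 3 time points, and Ddit3 at 1.12 and 0.94 has the highest enteroid values; Xbp1 at day 1 (0.29) and Atf4 at day 1 (0.14) and day 3 (0.18) turned to the other sign under quantile normalization.

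Whether the genotype difference itself changed with culture was tested on all 18 libraries, as contrasts of the differences within each table, since a factor common to a table cancels there. Between crypts and day 1, the difference became more positive for Ddit3 (0.86 ± 0.31 on the log2 scale, adjusted p = 0.0384, limma), Ern1 (0.57 ± 0.19, adjusted p = 0.0237, limma) and Atf6 (0.49 ± 0.17, adjusted p = 0.0288, limma), and more negative for Creb3l1 (-1.28 ± 0.26, adjusted p = 0.00265, limma). These were 3 and 1 of 10 genes, where 20.3% and 21.1% of 12145 genes were called. On simulated data this fit called more unchanged genes than the threshold allows between crypts and day 1. The calls of Ddit3, Ern1 and Atf6 were also lost without some single mice (highest adjusted p 0.129, 0.116 and 0.131, limma). In each of the 4 genes called between crypts and day 1, the change in all 3 Mtgr1-/- mice lay beyond that of every WT mouse. These genes were picked by the same contrast, and the share of all genes that separate this way was not computed. The separation is therefore only a description. Between crypts and day 3, the difference became more positive for Ern1 (0.53 ± 0.19, adjusted p = 0.0412, limma) and Ern2 (0.90 ± 0.26, adjusted p = 0.0180, limma), 2 of 10 genes against 16.5% of all genes, and for 0 genes did it become more negative (15.1% of all genes). With the spread of per-mouse differences alone, an alternative chosen after the data were seen, the 4 calls of day 1 held and the 2 of day 3 did not (Ern1 0.0562, Ern2 0.0534). With same-numbered WT and Mtgr1-/- mice paired by a replicate block, the day 1 call of Atf6 was lost (adjusted p = 0.0519, limma). Between day 1 and day 3, 0 of the 10 genes passed the limma test, where 0.0247% of all genes became more positive and 0.00823% more negative. The unadjusted p was under 0.05 there for 2 genes, Ern2 (1.20 ± 0.26, adjusted p = 0.110, limma) and Creb3l1 (1.09 ± 0.26, adjusted p = 0.152, limma), and without Mtgr1-/- mouse 2 both passed (0.00357 and 0.0251).

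Around the 10 genes, 91 further genes of ER biology were read as 5 lists, whose members never include the 10. In crypts few passed the test. Of 10 sensors and transducers, 1 fell (Creb3l4, an ER-bound factor of the Creb3l1 family, from 190.1 ± 29.5 to 23.7 ± 9.39 normalized counts, SD, n = 3). Of 24 ER chaperones and folding enzymes, 1 rose (Fkbp11, a prolyl isomerase, log2 fold change 1.29, a call lost without Mtgr1-/- mouse 2 with an adjusted p of 0.0727, limma) and 1 fell (Txndc5, a disulfide isomerase, -1.19). All 13 genes of ER-associated degradation and all 19 of translocation and secretory transport stayed short of the limma threshold (3 and 2 at an unadjusted p under 0.05). In the ATF4 and CHOP branch 1 of 24 tested genes fell, and 2 did without Mtgr1-/- mouse 2. The 1 gene was Vldlr (-3.35), at a mean under 50 normalized counts and named here after its value was seen.

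The list counts in enteroids stand beside 30.0% of all genes called higher and 28.9% called lower at day 1, and 29.9% and 29.1% at day 3. ER-associated degradation, by which misfolded proteins are pulled out of the ER and destroyed, was the most one-sided. At day 1, 11 of its 13 genes (84.6%) rose and 0 fell, with a median log2 fold change of 0.54, and at day 3, 9 (69.2%) rose and 1 fell, with a median of 0.36. Sel1l, the scaffold of the ubiquitin ligase complex, went from 3461 ± 275 to 5720 ± 384 normalized counts at day 1 (SD, n = 3, log2 fold change 0.73, adjusted p = 0.000635, limma). Os9, a lectin that delivers glycoproteins to that complex, rose by 1.04 on the log2 scale at day 1 and by 0.46 at day 3. Edem1, a mannosidase-like factor of the same route, rose by 0.82 and 0.52. The gene that fell at day 3 was Derl3 (-2.22, adjusted p = 0.00477, limma), at a mean under 50 normalized counts and named here after its value was seen. Without Mtgr1-/- mouse 2, 12 genes rose at day 1 and 9 at day 3. The ER lists were not recomputed under quantile normalization. At day 1 that setting moved Xbp1 from 0.29 to -0.0056, Atf4 from 0.14 to -0.21 and Pdia4 from -0.04 to -0.32. It moved Ddit3 from 1.12 to 1.29 and Trib3 from 0.77 to 0.92. Whether small called rises such as that of Derl2 at day 1 (0.27) hold in that setting was not tested.

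Of 24 ER chaperones and folding enzymes, 7 (29.2%) were higher and 4 (16.7%) lower at day 1 (median log2 fold change 0.091), and 5 were higher and 5 lower (20.8% each) at day 3 (-0.051). These shares lay near or below those of all genes. Dnajb9, a BiP cochaperone, rose by 1.44 on the log2 scale at day 1 and by 0.99 at day 3. P4hb, the main protein disulfide isomerase, went from 39734 ± 3043 to 96855 ± 15076 normalized counts at day 1 (log2 fold change 1.28, adjusted p = 0.000624, limma) and rose by 1.00 at day 3. Ero1l, the oxidase that recharges it, rose by 0.77 and 0.70. Txndc5 fell by 1.15 and 0.98, Dnajc10 by 0.65 and 0.59, and Pdia5 by 0.58 and 0.71.

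The sensors and transducers held 3 higher and 3 lower of 10 at day 1 and 3 higher and 2 lower at day 3. Those that rose on both days were Creb3l2 (1.82 and 1.259 on the log2 scale), Creb3l3 (1.75 and 2.05), a factor of liver and gut, and Creb3 (0.87 and 0.86). These are relatives of Creb3l1, which fell together with Creb3l4 (-3.75 and -2.63). Atf6b, the paralogue of Atf6, fell by 0.33 at day 1, as did Eif2s1, the translation factor that PERK phosphorylates, by 0.32, and Mbtps1, the protease that cuts ATF6, fell by 0.23 at day 3.

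In translocation and secretory transport, 8 of 19 genes (42.1%) rose and 1 (5.26%) fell at day 1 (median 0.19), and 5 (26.3%) rose and 4 (21.1%) fell at day 3 (median 0.082). Sec24d and Sec31a, of the coat that buds from the ER, rose by 1.53 and 0.75 at day 1 and by 1.24 and 0.49 at day 3, and Arfgap3 rose by 1.05 and 0.58. Ssr1 of the translocon fell by 0.31 and 0.40, and at day 3 the signal peptidase subunits Sec11c and Spcs3 fell by 0.39 and 0.32.

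The ATF4 and CHOP branch, to which Ddit3 and Trib3 are tied, held genes on both sides. At day 1, 3 of its 25 genes (12.0%) rose and 9 (36.0%) fell (median -0.11), and at day 3, 5 (20%) rose and 7 (28.0%) fell (median 0.035). Slc3a2, a subunit of amino acid transporters, rose by 1.18 and 0.98 on the log2 scale, and Sesn2 (0.62) and Ppp1r15b (0.47) rose at day 1. At day 3, Atf3 rose from 136 ± 25.1 to 314 ± 54.9 normalized counts (log2 fold change 1.20, adjusted p = 0.00107, limma) and Slc7a11, the cystine transporter, by 1.18. Among genes with a mean of at least 50, those that fell most were Nupr1 (-2.86 and -1.23), the serine and one-carbon enzymes Phgdh (-1.31 at day 1) and Shmt2 (-1.16 and -0.80), and Stc2 (-2.39 at day 3). Without Mtgr1-/- mouse 2 the branch held 6 higher and 9 lower at day 1.

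**Figure D4:**
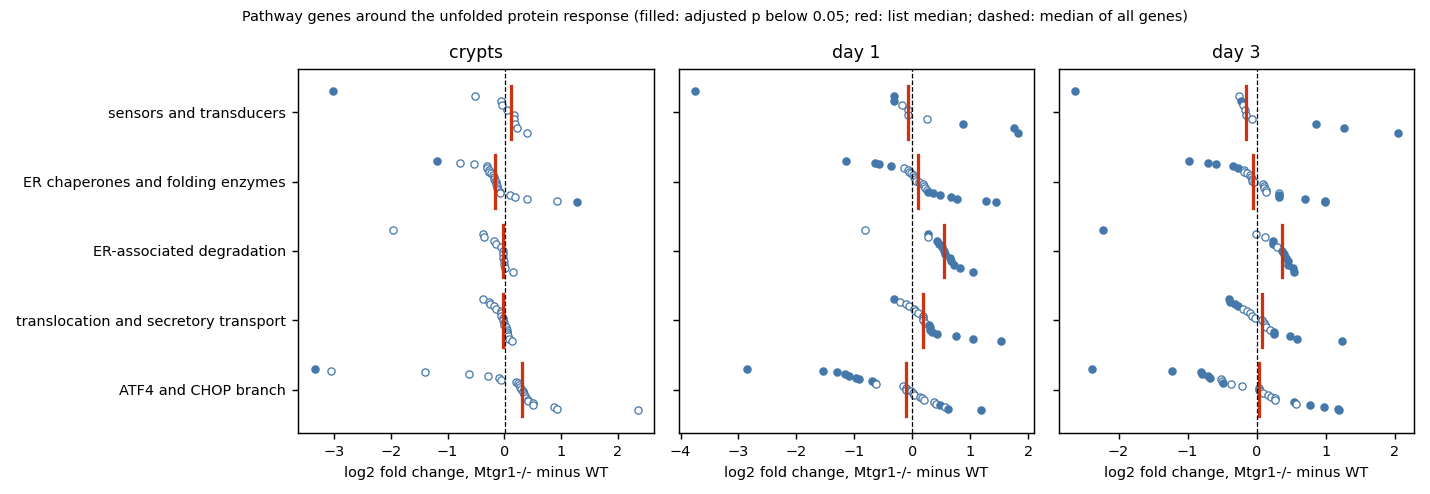
Log2 fold change (Mtgr1-/- minus WT) of each tested gene of 5 ER lists at the 3 time points; filled points passed an adjusted p of 0.05, red bars are list medians and dashed lines the median of all genes tested. The median of ER-associated degradation is 0.54 at day 1 and 0.36 at day 3. Of its 13 genes, 11 were called higher and 0 lower at day 1, and 9 higher and 1 lower at day 3. The other lists hold called genes on both sides on each of these days.

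Enterocyte markers also moved in enteroids, where 8 of 9 were higher in Mtgr1-/- on each day and 1 was lower at day 1. Their summed normalized counts were 237607 to 319131 in WT and 406845 to 629808 in Mtgr1-/- at day 1, and 183688 to 211297 against 326288 to 635299 at day 3, while in crypts they were 496369 to 659327 against 259511 to 480088. Although the crypt sums were lower, 1 of the 9 enterocyte markers was called lower there, 0 were called higher and 8 were not called. Stem cell markers (5 of 5 lower on each day) summed to 24090 to 51056 against 754 to 984 at day 1. In crypts they summed to 29023 to 37318 against 2692 to 5159, though 1 of the 5 was called lower. The median log2 fold change of the 5 was -0.29 in crypts and -3.29 at day 1. These sums therefore do not give the fall of a typical gene of the stem cell list. Of 7 enteroendocrine markers, 7 were lower in crypts, 6 at day 1 and 7 at day 3, with sums at 2.51% to 4.84% of WT. The part of these shifts in the rise of Ddit3, Trib3, Ern1, Xbp1 and Atf6 was not tested.

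Promoter sequences (RefSeq, GRCm38.p6, from 250 bases before to 50 after the start) were at hand for 7 of the 10 genes, not Ern2, Atf6 or Creb3l1. They were searched on both strands for the ER stress element ERSE (CCAAT and CCACG separated by 9 bases), ERSE-II (ATTGG and CCACG separated by 1 base), the XBP1 and ATF6 element UPRE (TGACGTGG, whose other strand holds the CCACG of the first pair, so that these can share bases) and the ATF4 and CHOP element CARE (TGATGNAA). Of 32851 promoters, 0.119% held ERSE, 0.0365% ERSE-II, 0.676% UPRE and 3.97% CARE. Among the 7 genes, Trib3 held 1 CARE and no other match was in these windows. The windows of Trib3, of Hspa5, which encodes BiP, and of Herpud1, a degradation factor, are shown as examples of CARE, ERSE and both CARE and ERSE-II, with the matched bases in capitals. They lie at chr2:152344011-152344310 (- strand), chr2:34771840-34772139 (+ strand) and chr8:94386179-94386478 (+ strand).
Trib3: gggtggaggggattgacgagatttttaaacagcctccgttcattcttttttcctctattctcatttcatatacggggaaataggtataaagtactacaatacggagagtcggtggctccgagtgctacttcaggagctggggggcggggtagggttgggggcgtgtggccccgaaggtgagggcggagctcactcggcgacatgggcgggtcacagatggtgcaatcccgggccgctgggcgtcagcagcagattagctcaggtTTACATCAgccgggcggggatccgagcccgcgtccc
Hspa5: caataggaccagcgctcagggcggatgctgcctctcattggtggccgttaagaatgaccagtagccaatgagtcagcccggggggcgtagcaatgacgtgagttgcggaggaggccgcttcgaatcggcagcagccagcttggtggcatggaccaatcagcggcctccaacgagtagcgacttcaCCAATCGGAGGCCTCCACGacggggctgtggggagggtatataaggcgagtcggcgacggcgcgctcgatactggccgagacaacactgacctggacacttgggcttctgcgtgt
Herpud1: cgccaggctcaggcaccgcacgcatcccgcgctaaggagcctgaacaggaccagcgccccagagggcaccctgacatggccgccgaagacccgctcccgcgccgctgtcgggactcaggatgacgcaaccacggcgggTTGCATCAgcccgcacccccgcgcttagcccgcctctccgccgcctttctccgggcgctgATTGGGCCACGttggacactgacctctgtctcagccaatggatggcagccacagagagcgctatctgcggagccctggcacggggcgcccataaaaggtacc
The first matched base is at position 15 in Trib3 (counting the start as 1), -65 in Hspa5, and -112 (CARE) and -52 (ERSE-II) in Herpud1, where negative positions lie before the start. Of the 91 genes of the lists, 77 had a promoter sequence, and 10 of these held ERSE. At day 1, 4 of the 10 were higher (Ero1lb 0.66, Syvn1 0.65, Dnajc3 0.35 and Canx 0.27 on the log2 scale) and 1 was lower (Pdia6, -0.37), and at day 3, 2 were higher (Syvn1 0.40, Canx 0.33) and 2 lower (Derl3 -2.22, Pdia6 -0.35). Of all tested genes with ERSE, day 1 had 31.6% of 19 higher and 10.5% lower, while day 3 had 25% and 20% of 20, with these 10 among them. Hspa5 itself was short of the threshold (0.22, adjusted p = 0.108 at day 1; 0.14, adjusted p = 0.219 at day 3, limma), whereas Herpud1 rose on both days (0.46, adjusted p = 0.0370; 0.46, adjusted p = 0.00894, limma). Of the 10 list genes with CARE, 1 was higher and 3 lower at day 1 and 3 were higher and 2 lower at day 3, beside Trib3, which was higher on both days. Of all tested genes with CARE, day 1 had 33.3% higher and 24.8% lower, while day 3 had 33.6% and 24.7%. UPRE marked 100 tested genes on each enteroid day. Of these, 43% rose and 20% fell after 24 h, beside 30.0% and 28.9% of all genes. After 72 h, 40% rose and 23% fell, beside 29.9% and 29.1%. Its 3 list genes were Sec24d (1.53, then 1.24 on the log2 scale), Txndc5 (-1.15, then -0.98) and Ube2j1, called higher only at 72 h (0.24). ERSE-II marked 10 tested genes, of which 30% rose and 20% fell after 24 h, then 20% and 40%. Whether these shares differ from those of all genes was not tested.

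To place each gene among all others, the genes with the most similar profile were sought over the 18 libraries after the mean of each table was removed, among 10589 genes with a mean of at least 50 in each table. The 18 libraries come from 6 mice and share the genotype difference, so Pearson's r is given as a description. Nearest to Ern2 were Rep15 (r = 0.994), Agr2 (0.992), a goblet cell disulfide isomerase of the marker list, and Rasa4 (0.988). Nearest to Creb3l1 were Pkp1 (0.989), Olfm4 (0.988), a gene of the stem cell marker list, and Mcf2l (0.987). For Ddit3 they were Naip5 (0.978), Zc3h3 (0.962) and Hip1r (0.958), and for Trib3 they were Clca4a (0.907), Abcb1a (0.891) and Rhob (0.885). Nearest to Xbp1 were Atp10b (0.935), Shb (0.915) and Taok3 (0.903), to Ern1 Isx (0.859), Aspa (0.847) and Slc30a7 (0.843), and to Atf6 Cept1 (0.944), Clcn3 (0.939) and Ccdc186 (0.938). Atf4 lay closest to Chac1 (0.909), a gene of the ATF4 and CHOP list, then Scamp4 (0.889) and Ubl4a (0.884). Both folding targets lay among chaperones, Sdf2l1 with Creld2 (0.905), Hsp90b1 (0.894) and Hyou1 (0.838), and Pdia4 with Hsp90b1 (0.896), Creld2 (0.857) and Pdia6 (0.798).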

How the data were processed

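Libraries were made from mRNA with a stranded kit and read as single reads. Per the labels and the study's methods, the authors trimmed reads with fastp 0.20.0, quantified GENCODE M21 transcripts with Salmon 1.3.0 and summed them per gene, and normalized with DESeq2 1.26.0. The signal the authors deposited per library is the gene count divided by 1 factor, in a separate table per time point. All 17759 gene IDs of the crypt table matched GENCODE M21 (GRCm38). The authors' means, fold changes and p-values, held in the same tables, were not used. Groups and mouse numbers came from the labels.

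At each time point, genes averaging 10 or more were compared on log2(normalized count + 1) with limma 3.58.1 (R 4.3.3, eBayes with a trend), two-sided, with Benjamini-Hochberg adjustment over all genes and a threshold of 0.05. Changes of the genotype difference were tested in 1 limma fit over the 18 libraries, in which libraries of 1 mouse were allowed to correlate (estimate -0.00481), over 12145 genes. Tables were normalized separately, so levels were not tested across them. In 16 libraries the spacing of low values gave back whole reads (median 26258539), which were tested with edgeR 4.0.16 and DESeq2 1.42.0, 2 against 3 in crypts and 3 against 2 at day 3. The fits were tested on simulated data. There, the fit of all 18 libraries called more unchanged genes than the threshold allows between crypts and day 1, so per-mouse differences were added. The median within-group SD was 0.187 in crypts, 0.169 at day 1 and 0.153 at day 3 on the log2 scale.

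The members and lists were chosen with earlier results of these data known. Named are the 10 genes at all time points, up to 3 genes per ER list, time point and direction with the largest called change and a mean of at least 50, markers as lists, and the 3 genes most similar to each member. Vldlr, Derl2, Derl3, Gfi1b and the genes named for a promoter match lie outside this rule and were chosen after their values were seen. Same-numbered WT and Mtgr1-/- mice deviated together in all 3 pairs at day 1 (correlations of 0.116, 0.231 and 0.216), in 2 of 3 pairs above 0.1 in crypts (0.0764, 0.274 and 0.346) and not at day 3 (-0.00666, -0.00226 and -0.0156), and nothing in the labels ties them to a litter. Differently numbered pairs ranged from -0.19 to -0.0152 at day 1, -0.302 to 0.201 in crypts and -0.0967 to 0.105 at day 3. Xist was high in WT mouse 3 and Mtgr1-/- mouse 1, which do not share a number.

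Alternatives were each library left out, pseudocounts of 0.1 and 8, no filter, median-ratio rescaling, quantile normalization, no trend, the replicate block, edgeR and DESeq2. Xist as a covariate, per-mouse differences and the lists without Mtgr1-/- mouse 2 were added after the data were seen.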

Additional observations from a re-analysis of the deposited data

Results flagged for a closer look

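The change of the genotype difference between 2 time points passed the limma test in 6 cases among the 10 genes and 3 contrasts. From crypts to day 1 these were Ddit3 (0.86 on the log2 scale), Ern1 (0.57), Atf6 (0.49) and Creb3l1 (-1.28). Creb3l1 held in all 11 alternatives (adjusted p from 0.00124 to 0.0214), while Ddit3, Ern1 and Atf6 were lost without some single mice (highest adjusted p 0.129, 0.116 and 0.131). From crypts to day 3 they were Ern1 (0.53) and Ern2 (0.90), with highest adjusted p of 0.170 and 0.104 over 11 alternatives. Groups of 3 are too small to look for single libraries that stand apart by a rule.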

How the results depend on the processing

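The count of the 10 genes lower in Mtgr1-/- was 2 at each time point and that of genes higher was 0 in crypts, 5 at day 1 and 4 at day 3. Quantile normalization gave 3 higher and 4 lower at day 1, where Xbp1 (-0.0056) and Atf4 (-0.21) changed sign. The cause was not tested, and the ER lists were not recomputed under quantile normalization. Leaving out 1 library gave 2 to 4 higher at day 1 and 2 to 5 at day 3, and 2 to 3 lower at day 3. Among all genes in crypts, it gave 55 to 229 higher and 121 to 379 lower, edgeR gave 52 and 157, and DESeq2 gave 434 and 766, against 205 and 409. Genes of the 10 whose genotype difference changed numbered 1 to 6 between crypts and day 1, 0 to 1 between crypts and day 3, and 0 to 2 between day 1 and day 3 when 1 mouse was left out. Per-mouse differences gave 0 between crypts and day 3. With the replicate block, which pairs same-numbered mice, the counts of the 10 genes were 0 higher and 2 lower in crypts, 5 and 2 at day 1, and 4 and 2 at day 3, and all genes higher numbered 174, 4111 and 3720. It changed 1 call, that of Atf6 between crypts and day 1 (adjusted p = 0.0519). Xist as a covariate left the counts of the 10 genes at 0 and 2, 5 and 2, and 4 and 2. A fit without 1 library assumes that the remaining 2 vary like the other group. Depth limits Ern2 most, whose Mtgr1-/- values are 12.8 to 39.8 normalized counts per library.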
